A study of Cricetulus griseus with 9 samples.

Results

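Genes that stand at the entry of glucose, lactate and pyruvate into metabolism, 6 in all, were followed across 9 RNA-seq libraries of a hamster cell line. They are Slc2a1, Hk1, Hk2, Bsg, Mpc2 and Pdha1, chosen by symbol from the deposited table, and all 6 were found among its 6753 genes. The cells are MI5-4, a line derived from Chinese hamster ovary (CHO) cells, grown in medium with glucose and 10% serum. WTHK2 libraries come from MI5-4 cells labelled as expressing wild-type HK2. LAC libraries come from MI5-4 cells with the empty vector that were given 10 mM sodium lactate for 24 h. EV libraries come from MI5-4 cells with the empty vector, which the series describes as hexokinase null. Each group had 3 libraries, and all 3 groups share the MI5-4 background. The labels give neither the species or promoter of the HK2 construct nor whether the cells are 1 clone, and they do not say whether replicates came from separate cultures. The p-values therefore cover only the spread among these libraries, which may be technical.

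Glucose enters most cultured cells through GLUT1, the carrier encoded by Slc2a1. Hexokinases then trap it as glucose 6-phosphate: hexokinase 1 is the form found in most tissues, and hexokinase 2 is the form known from muscle, fat and many tumours. Both can bind the outer mitochondrial membrane. Lactate crosses the plasma membrane through monocarboxylate transporters, several of which need basigin, the product of Bsg, to reach the cell surface. Pyruvate made from glucose or lactate enters mitochondria through a carrier of the proteins MPC1 and MPC2, and pyruvate dehydrogenase, whose catalytic E1 alpha subunit is encoded by Pdha1, turns it into acetyl-CoA.

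Values are normalized CPM, read counts that the authors scaled to a common library size. The steps of the values gave effective library sizes of 18050959 to 26238659 reads. The lowest mean of any gene was 20.4 CPM, so lower genes were not analysed here. Folds are log2 differences of CPM plus 1, with a standard error (SE) and 95% interval from a single limma fit of all 9 libraries. A change was called where p, adjusted by Benjamini-Hochberg across the 6753 genes, was under 0.05. CPM does not correct for transcript length, so levels are compared between groups and not between genes. In RNA from a whole culture, fewer cells that express a gene and less RNA per cell cannot be told apart. Of marker lists for other cell types, 0 of 6 leukocyte, 0 of 5 epithelial and 0 of 3 endothelial genes were in the table. The table holds no low genes and may lack others, so this does not show that such cells were absent. Of 6 mesenchymal genes 4 were listed, with summed levels of 4901 to 4997 CPM in WTHK2, 4156 to 4299 CPM in LAC and 4114 to 4213 CPM in EV. Vim made up most of each sum, and the 4 genes did not move together: against EV, Vim (0.31), Col3a1 (0.56) and S100a6 (0.47) rose and Fn1 (-0.35) fell in WTHK2, while in LAC S100a6 (0.31) rose and Fn1 (-0.33) fell. The part of those differences in the results was not tested.

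The hexokinase transcripts come first, since they bear on the group labels. Hk2 had 66.6, 65.3 and 63.9 CPM in the libraries labelled WTHK2 and 64.7, 70.4 and 68.5 CPM in LAC, against 68.4, 68.7 and 64.9 CPM in EV. The 3 groups overlapped, and the lowest value of all belonged to a library labelled WTHK2. Hk2 was not called in the WTHK2 comparison with EV, its log2 fold change being -0.044 with an SE of 0.054 (adjusted p = 0.522). The 95% interval of that fold ran from 0.898 to 1.05. In LAC against EV the log2 fold change was 0.010 (95% interval -0.10 to 0.12, adjusted p = 0.890). The Hk2 row does not show the expression that the WTHK2 label names, so WTHK2 stands here for the libraries labelled so, in every direction given. Whether reads from the construct could be counted in this row cannot be told from the table, because the construct's sequence is not given in the sources used here.

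Hk1 transcript was present in all libraries of the line described as hexokinase null, which does not show whether active enzyme was made. It had 279, 284 and 294 CPM in libraries labelled WTHK2 and 305, 302 and 300.2 CPM in LAC, against 332, 321 and 318 CPM in EV. The 3 groups did not overlap: every WTHK2 library lay below every LAC library, and every LAC library below every EV library. Hk1 fell in WTHK2 against EV, by a fold of 0.882 (log2 -0.18, SE 0.035, adjusted p = 0.000364). A larger absolute change was seen in 35.4% of all genes. In LAC against EV Hk1 was called lower at -0.097 on the log2 scale (SE 0.035, adjusted p = 0.0277). Leaving out LAC replicate 3 ended that call (adjusted p = 0.0732), as did leaving out EV replicate 1 (0.125) or EV replicate 2 (0.0593). It was also lost with equal medians in all libraries (-0.055, adjusted p = 0.212) and without the variance trend (0.0775). The step between WTHK2 and LAC did not pass, with a log2 difference of -0.084 (95% interval -0.16 to -0.010, adjusted p = 0.117).

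Hk1 and Hk2 were also set against each other within each library, as the sum of their CPM and as the log2 ratio of Hk2 to Hk1, each as CPM plus 1. The ratio, unlike the sum, does not depend on the scaling between libraries beyond the small effect of the 1 added. The summed level was 345, 349 and 358 CPM in WTHK2 and 369, 373 and 369 CPM in LAC, against 400.0, 390 and 383 CPM in EV. This sum is not corrected for length and is dominated by Hk1. The log2 ratio of Hk2 to Hk1 averaged -2.11 ± 0.067 in WTHK2, -2.14 ± 0.069 in LAC and -2.25 ± 0.035 in EV (SD, n = 3 each). All 3 WTHK2 libraries lay above all 3 EV libraries, by a mean difference of 0.14. A two-sided exact permutation test gave p = 0.1, the smallest that 3 against 3 libraries allow, and an adjusted p of 0.30 over the 3 comparisons. LAC exceeded EV by 0.11 in the mean, and the groups overlapped (exact permutation p = 0.2, adjusted p = 0.30). WTHK2 and LAC differed by 0.029 (exact permutation p = 0.6, adjusted p = 0.6). The shift between WTHK2 and EV arose with lower Hk1 and with Hk2 levels whose groups overlapped.

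**Figure D1:**
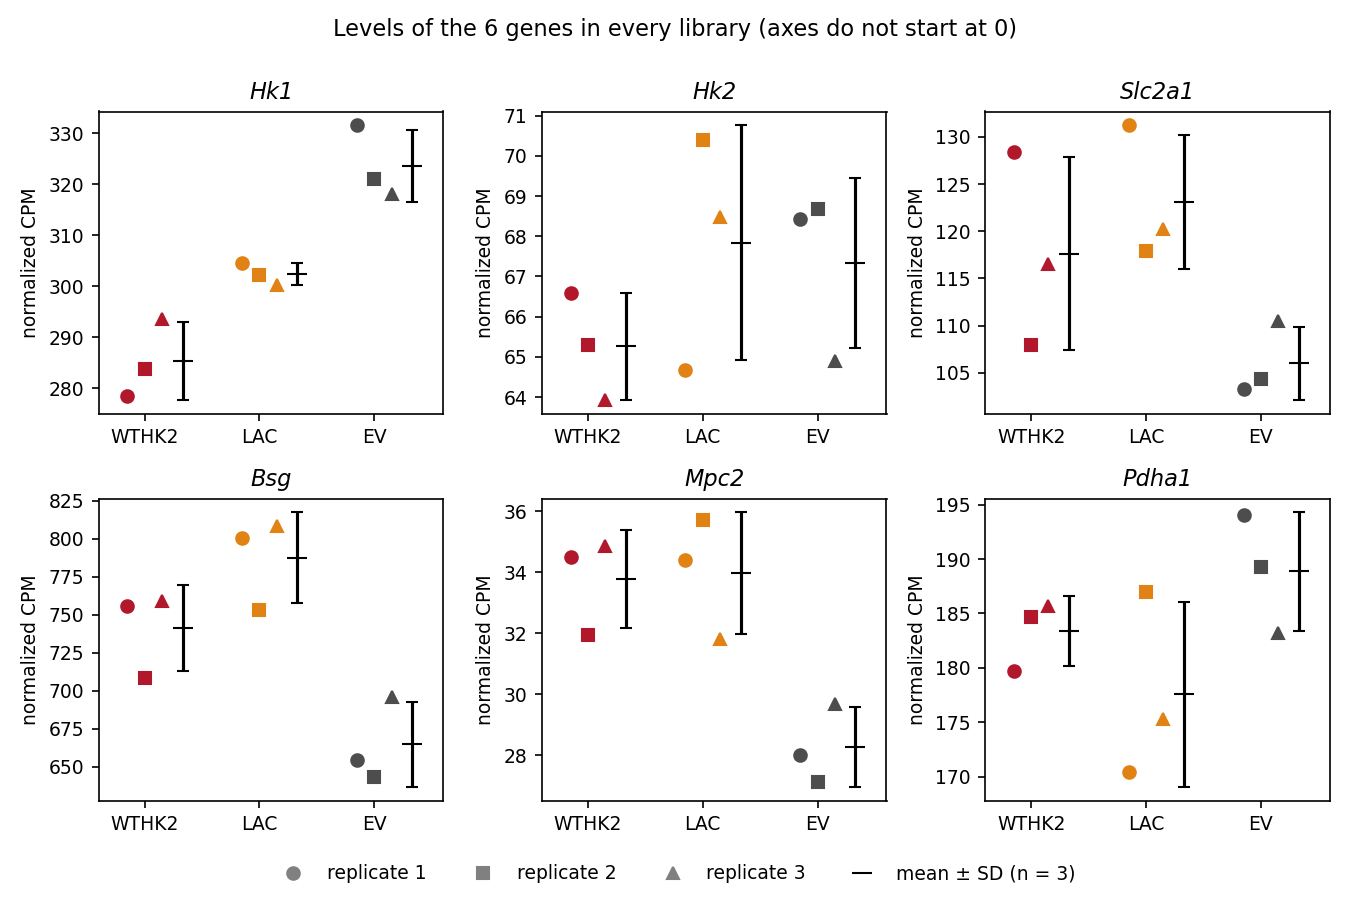
Normalized CPM of each of the 6 genes in every library, with WTHK2, LAC and EV from left to right, a marker shape for each replicate number, and the mean ± SD of 3 libraries beside the points; the axes do not start at 0. Hk1 runs from 279 to 332 CPM with no overlap between groups, Hk2 overlaps in all 3 groups, and Bsg and Mpc2 lie above EV in all 6 other libraries.

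Glucose uptake was represented by Slc2a1 alone: the other 11 listed glucose carriers and Txnip, an inhibitor of glucose uptake, were not in the table. Slc2a1 had 128, 108 and 117 CPM in WTHK2 and 131, 118 and 120.3 CPM in LAC, against 103, 104 and 110.5 CPM in EV. LAC lay above EV with no overlap, while WTHK2 replicate 2 lay below EV replicate 3. Slc2a1 rose in LAC against EV by 0.21 on the log2 scale (SE 0.057, adjusted p = 0.00449) and held its call under every alternative run. In WTHK2 against EV it passed narrowly at 0.15 (SE 0.057, adjusted p = 0.0427). Without WTHK2 replicate 1 this value was 0.082 (adjusted p = 0.247). The call was also lost on leaving out WTHK2 replicate 3 (adjusted p = 0.0737), EV replicate 1 (0.145) or EV replicate 2 (0.121), without the variance trend (0.0876) and with voom on recovered reads (0.0507).

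Slc2a1 was highest in the first replicate of both WTHK2 and LAC. The mitochondrially encoded transcripts in the table were highest in the same libraries. Of 13 such genes on the list, 4 were in the table (COX1, COX3, CYTB and ND4). They summed to 19732, 15912 and 15876 CPM in WTHK2 and 20765, 16649 and 16376 CPM in LAC, against 12162, 11862 and 12631 CPM in EV. Most of each sum was COX1, with 17192 CPM in WTHK2 replicate 1. The part of these transcripts in the Slc2a1 result was not tested. With replicate 1 of both these groups left out, Slc2a1 remained called in LAC against EV at 0.17 and was not called in WTHK2 against EV (0.082, adjusted p = 0.194). Between WTHK2 and LAC its log2 difference was -0.067 (95% interval -0.19 to 0.052, adjusted p = 0.473). It was -0.13 without WTHK2 replicate 1 and -0.0080 without WTHK2 replicate 2.

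Bsg, on the lactate side, had 756, 708 and 759 CPM in WTHK2 and 800.4, 753 and 809 CPM in LAC, against 655, 643 and 696 CPM in EV. Both groups lay above EV with no overlap. Bsg rose in LAC by 0.24 on the log2 scale (SE 0.039, adjusted p = 4.55e-05), and 23.1% of genes changed more in absolute terms. In WTHK2 it rose by 0.16 (SE 0.039, adjusted p = 0.00264). Both calls held under every alternative run. WTHK2 stood below LAC by a log2 difference of -0.087 (95% interval -0.17 to -0.0063), which did not pass (adjusted p = 0.139). Without LAC replicate 2 that difference was called (-0.12, adjusted p = 0.0370), and without WTHK2 replicate 2 it was -0.055 (adjusted p = 0.450).

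Of the other listed lactate genes only Slc16a1 was in the table. It encodes MCT1, a monocarboxylate transporter that partners with basigin. Slc16a1 had 228, 202 and 206 CPM in WTHK2 and 225, 215 and 215 CPM in LAC, against 225, 226 and 224 CPM in EV. It was not called in any comparison, with log2 fold changes of -0.089 in WTHK2 (95% interval -0.18 to 0.0019) and -0.043 in LAC (95% interval -0.13 to 0.047) against EV. The intervals for Bsg and Slc16a1 did not overlap in either comparison with EV. The difference between the 2 genes was not itself tested.

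Pyruvate entry into mitochondria was represented by Mpc2, since Mpc1 was not in the table. Mpc2 had 34.5, 31.9 and 34.9 CPM in WTHK2 and 34.4, 35.7 and 31.8 CPM in LAC, against 28.0, 27.1 and 29.7 CPM in EV. All 6 libraries of WTHK2 and LAC lay above all 3 EV libraries. Mpc2 rose by 0.25 in WTHK2 (SE 0.072, adjusted p = 0.00831) and by 0.26 in LAC (SE 0.072, adjusted p = 0.00621) on the log2 scale. It kept both calls under every alternative in which it could be tested, and a filter at 50 CPM removed it. WTHK2 and LAC differed by -0.0077 (95% interval -0.16 to 0.14, adjusted p = 0.960).

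Pdha1 was not called in any comparison. It had 179.7, 185 and 186 CPM in WTHK2 and 170.4, 187 and 175 CPM in LAC, against 194, 189 and 183 CPM in EV. The groups overlapped, with the lowest values in LAC replicates 1 and 3. The log2 fold change was -0.042 in WTHK2 (95% interval -0.13 to 0.046, adjusted p = 0.431) and -0.089 in LAC (95% interval -0.18 to -0.0015, adjusted p = 0.0844). Without LAC replicate 2 the LAC value was called (-0.13, adjusted p = 0.0176).

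**Figure D2:**
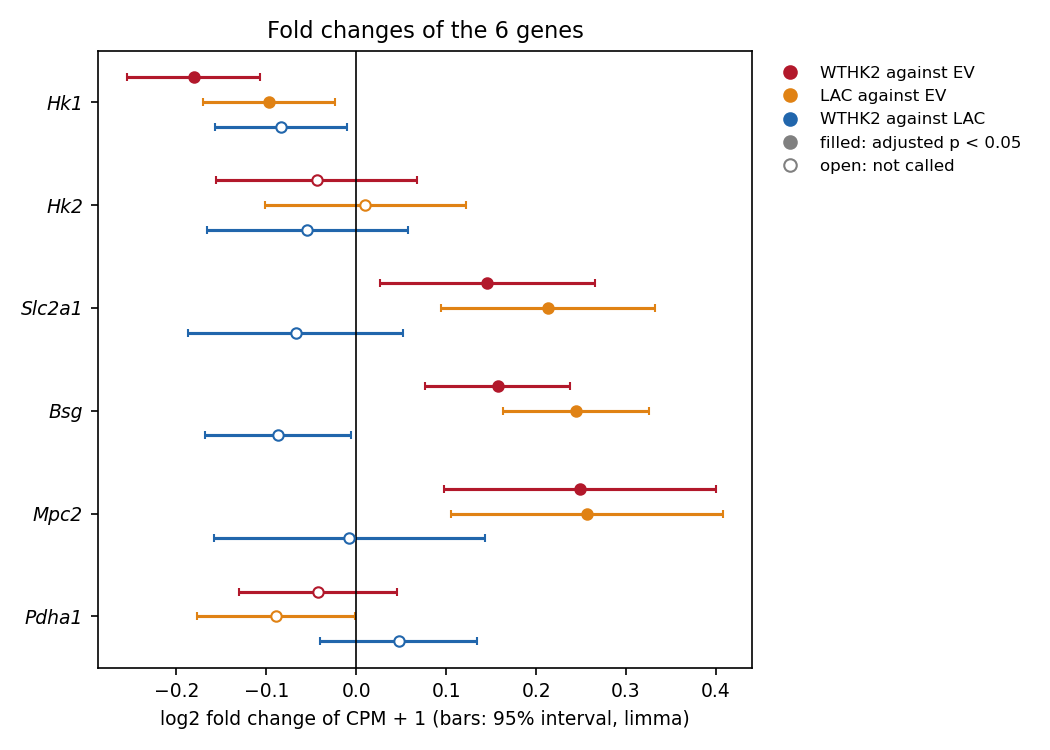
Log2 fold changes of CPM plus 1 for the 6 genes in WTHK2 against EV, LAC against EV and WTHK2 against LAC, with 95% intervals from limma; filled points passed an adjusted p of 0.05 and open points did not. Slc2a1, Bsg and Mpc2 lie to the right of 0 and Hk1 to the left in both comparisons with EV, and none of the 6 passed between WTHK2 and LAC.

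Counted together, 3 of the 6 genes were higher and 1 lower in WTHK2 against EV. Calls made up 46.4% of all genes in that comparison, 21.0% higher and 25.4% lower. In LAC against EV 3 were higher and 1 lower, where 49.5% of all genes were called, 22.4% higher and 27.1% lower. With 6 genes, 4 calls lie near these shares, and the counts alone are no result about these genes. The median log2 fold change of the 6 was 0.052 in WTHK2 and 0.11 in LAC, beside -0.0082 and -0.0035 over all genes. These medians were not tested, and the 6 genes were chosen with earlier results of these data known. The 2 comparisons share the EV libraries and are not independent of each other. With equal medians in all libraries, the share of higher genes among those called moved to 57.3% in WTHK2 against EV, beside 45.3% as deposited, and to 58.6% in LAC against EV, beside 45.3%. Among the 6 genes no log2 fold change turned its sign under that rescaling.

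Groups that did not overlap gave a like picture. In WTHK2 against EV Hk1, Bsg and Mpc2 did not overlap, where 57.1% of all genes did not (26.6% higher, 30.5% lower). In LAC against EV the same held for Hk1, Slc2a1, Bsg and Mpc2, where the share over all genes was 57.8% (27.0% higher, 30.8% lower). Between WTHK2 and LAC only Hk1 of the 6 did not overlap, against 29.0% of all genes (14.5% higher, 14.5% lower). In that comparison limma called 0 of the 6 genes, beside 16.1% of all genes (8.37% higher, 7.76% lower). At an unadjusted p under 0.05 it counted 2, Hk1 and Bsg, beside 29.3% of all genes, and voom on recovered reads also called 0.

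The spread between replicates differed among the 6 genes. Slc2a1 had coefficients of variation of 8.70% in WTHK2, 5.79% in LAC and 3.67% in EV, where counting error alone gives 1.98% to 2.02%. Bsg varied by 3.84%, 3.81% and 4.20% in WTHK2, LAC and EV, well above its counting error of 0.788% to 0.805%. Hk2 varied by 2.04%, 4.30% and 3.14% in the same order of groups, against counting errors of 2.66%, 2.69% and 2.53%. Hk1 varied by 2.67%, 0.733% and 2.19%, against counting errors of 1.27%, 1.27% and 1.15%. The 3 LAC libraries thus lay closer together for Hk1 than counting error alone gives. Pdha1 varied by 1.75%, 4.79% and 2.88%, against counting errors of 1.59%, 1.66% and 1.51%. Mpc2, with 623 to 838 reads per library, varied by 4.74%, 5.86% and 4.64%, against counting errors of 3.69% to 3.90%.

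**Figure D3:**
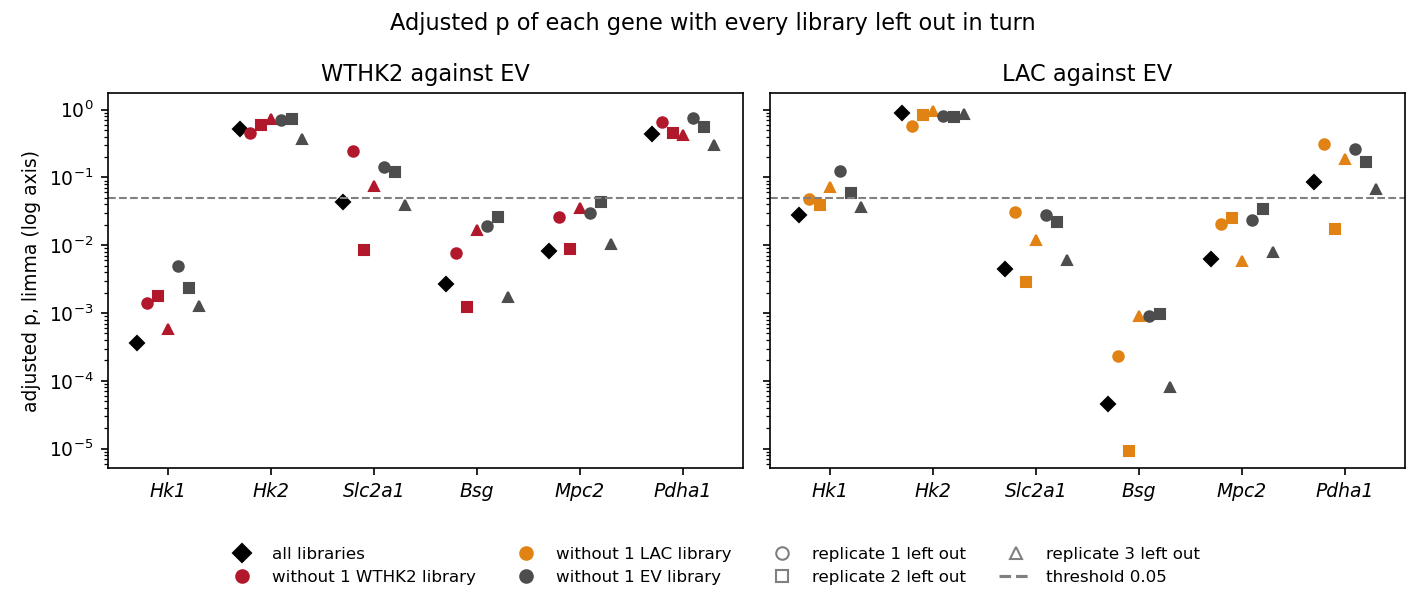
Adjusted p from limma, on a log axis, for each of the 6 genes with all libraries (diamonds) and with each library of the comparison left out in turn (colour for its group, shape for its replicate number), for WTHK2 against EV and LAC against EV; the dashed line is 0.05. Bsg and Mpc2 stay below the line in both panels, while Slc2a1 in WTHK2 reaches 0.247 and Hk1 in LAC reaches 0.125.

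The pathway around the 6 genes was followed with 7 lists of 69 symbols, of which 26 were in the table, 20 of them besides the 6. Of these 20, 3 were higher and 2 lower in WTHK2 against EV, 4 higher and 3 lower in LAC against EV, and 2 higher and 1 lower in WTHK2 against LAC. Over all genes 46.4%, 49.5% and 16.1% were called in these comparisons. The medians over the 20 were -0.038, -0.044 and 0.037, beside -0.0082, -0.0035 and 0.0041 over all genes. Adpgk, which phosphorylates glucose with ADP as the donor, and Vdac2, a mitochondrial outer membrane channel, were called in no comparison.

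Around glucose 6-phosphate 5 listed genes were in the table. Of these, 1 was called in WTHK2 against EV, 2 in LAC against EV and 2 in WTHK2 against LAC. The shares over all genes were 46.4%, 49.5% and 16.1%. G6pc3, a glucose 6-phosphatase that runs against the hexokinase reaction, had 97.3, 84.7 and 88.3 CPM in WTHK2 and 74.5, 71.7 and 78.5 CPM in LAC, against 64.4, 57.5 and 65.3 CPM in EV. It rose by 0.52 in WTHK2 (SE 0.062, adjusted p = 1.69e-06) and by 0.26 in LAC (SE 0.062, adjusted p = 0.00170) against EV. WTHK2 was also higher than LAC by 0.26 (adjusted p = 0.00585), and no 2 groups overlapped. GPI, glucose 6-phosphate isomerase, had 285, 276 and 269 CPM in WTHK2 and 316, 301 and 309.8 CPM in LAC, against 272, 257 and 273 CPM in EV. It rose in LAC against EV by 0.21 (SE 0.038, adjusted p = 0.000176) and was lower in WTHK2 than in LAC at -0.16 (adjusted p = 0.00677). In WTHK2 against EV it was at 0.050 (95% interval -0.030 to 0.13, adjusted p = 0.296).

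Around pyruvate, Gpt2, a mitochondrial alanine aminotransferase, fell in WTHK2 against EV at -0.29 (SE 0.082; adjusted p = 0.00645) and stood at -0.20 in LAC (adjusted p = 0.0524). The LAC value depended on single libraries and on the fit. It was called without LAC replicate 2 (adjusted p = 0.0373) or LAC replicate 3 (0.0354), and was -0.11 without LAC replicate 1 (0.301). With all libraries kept, limma called it without the variance trend (adjusted p = 0.0288) and with a replicate block (0.0444), as did voom on recovered reads (0.0459). Me1, the cytosolic malic enzyme, was called lower in LAC at -0.14 (adjusted p = 0.0365), a call lost without LAC replicate 1 (adjusted p = 0.138), LAC replicate 3 (0.0837), EV replicate 1 (0.114) or EV replicate 2 (0.0924) and under both other scalings (0.132 and 0.0751). Pc, pyruvate carboxylase, was at -0.11 in both WTHK2 (adjusted p = 0.0547) and LAC (adjusted p = 0.0557) against EV and was not called.

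The pyruvate dehydrogenase list had 9 of 16 genes in the table. Against EV it held 2 higher and 1 lower in WTHK2, where 46.4% of all genes were called. In LAC it held 2 higher and 2 lower, where the share was 49.5%. Among its regulators, Pdk2, a kinase that inactivates the complex by phosphorylation, had 51.7, 52.0 and 55.2 CPM in WTHK2 and 41.3, 44.2 and 44.1 CPM in LAC, against 41.4, 46.2 and 43.8 CPM in EV. It rose in WTHK2 against EV by 0.27 (SE 0.063, adjusted p = 0.00165). WTHK2 was higher than LAC by 0.29 (adjusted p = 0.00315), and LAC against EV was at -0.019 (95% interval -0.15 to 0.11), a sign that turns under both other scalings (0.022 and 0.021). Pdpr, the regulatory subunit of the phosphatase that reactivates the complex, had 35.5, 40.2 and 40.1 CPM in WTHK2 and 38.2, 40.3 and 36.9 CPM in LAC, against 46.8, 49.3 and 46.6 CPM in EV. Its log2 fold changes against EV were -0.30 in WTHK2 (SE 0.067, adjusted p = 0.00138) and -0.30 in LAC (SE 0.067, adjusted p = 0.00113).

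Of the catalytic subunits beside Pdha1, Dlat, the E2 acetyltransferase, was called lower in LAC against EV at -0.13 (adjusted p = 0.0110). This call was lost without LAC replicate 1 (adjusted p = 0.0608) or EV replicate 1 (0.0650) and under both other scalings (0.0701 and 0.0745). In WTHK2 Dlat stood at -0.097 (adjusted p = 0.0524), and it was called there under some alternatives, among them without EV replicate 3 (0.0489). Dld, the E3 subunit, was not called, at -0.073 in WTHK2 and -0.054 in LAC. Lipt2, which attaches the octanoyl group from which lipoate is made, had 62.4, 63.1 and 65.3 CPM in WTHK2 and 56.2, 61.9 and 60.6 CPM in LAC, against 50.5, 45.1 and 53.3 CPM in EV. Lipt2 rose by 0.35 in WTHK2 (SE 0.064, adjusted p = 0.000170) and by 0.26 in LAC (SE 0.064, adjusted p = 0.00225). Lias, lipoate synthase, was called higher in LAC at 0.20 (adjusted p = 0.0344), and that call was lost without LAC replicate 1 (0.0836), LAC replicate 3 (0.135), EV replicate 2 (0.159) or EV replicate 3 (0.0747).

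**Figure D4:**
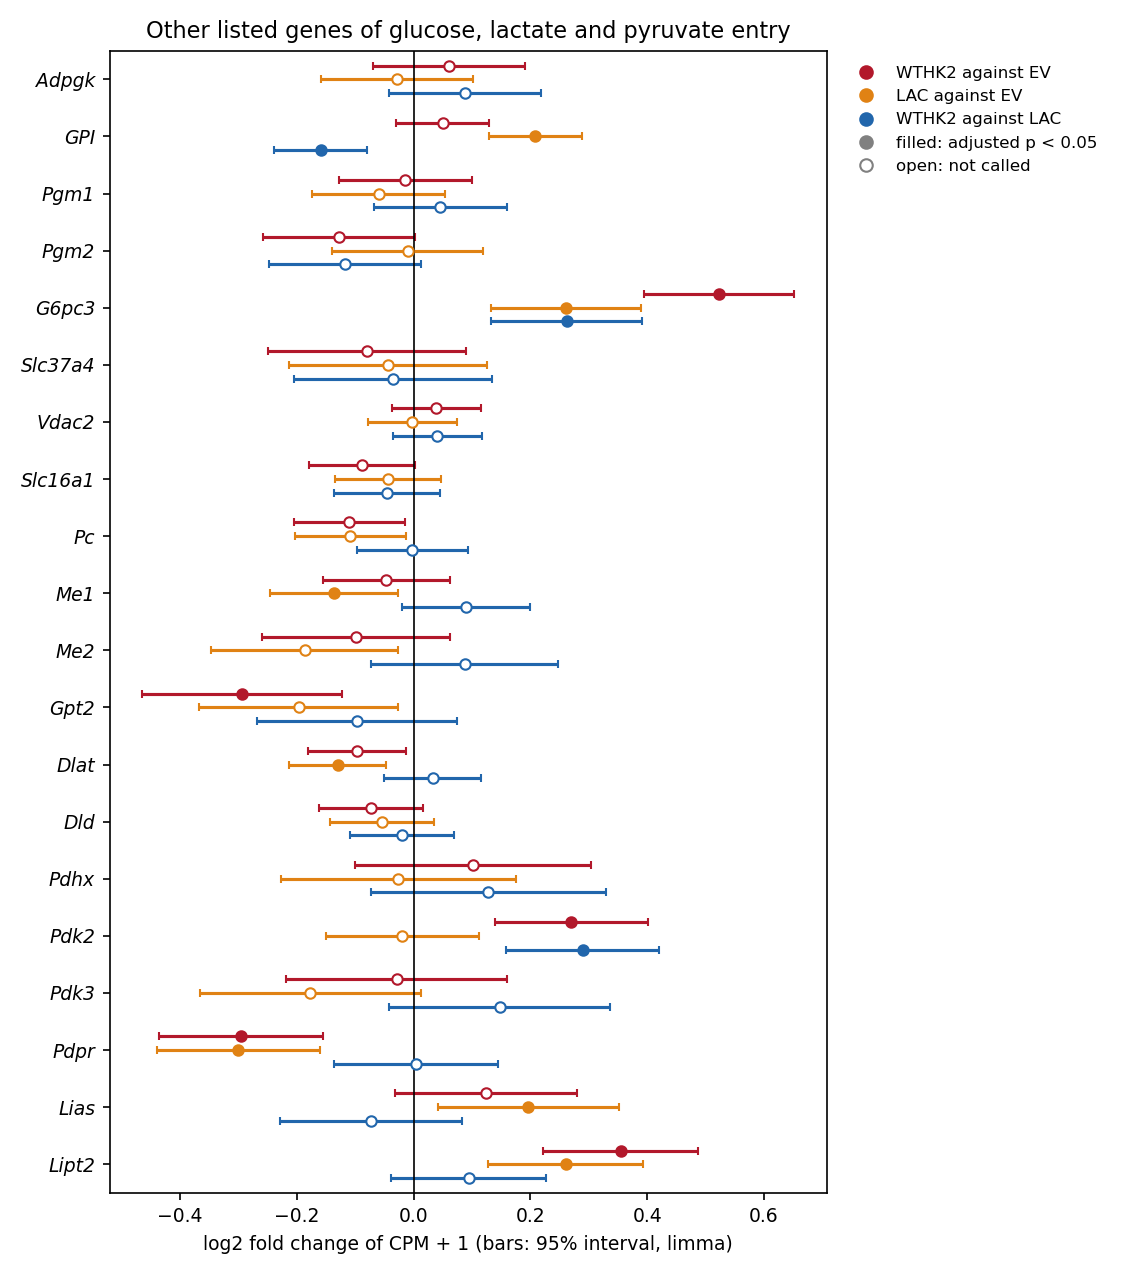
Log2 fold changes of CPM plus 1 with 95% intervals from limma for the 20 listed genes besides the 6, where filled points passed an adjusted p of 0.05. Genes are ordered by list, from the hexokinases (Adpgk) to pyruvate dehydrogenase and its regulators. G6pc3 is filled in all 3 comparisons, Pdk2 at 0.27 and 0.29 in those of WTHK2, GPI at 0.21 and -0.16 in those of LAC, and Pdpr lies at -0.30 against EV in both.

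Genes with the most similar course were found by Pearson correlation of log2 CPM plus 1 over the 9 libraries. These values carry the group differences and the scaling that all genes share, and are given as a measure of likeness only. For Hk1 they were Grk6 (0.986), Drosha (0.981) and Psat1 (0.975). Psat1, an enzyme of serine synthesis, had 108 to 123 CPM in WTHK2, 140 to 149 CPM in LAC and 164 to 176 CPM in EV. That is the order of groups of Hk1, which picking genes by correlation with Hk1 favours. For Slc2a1 they were Cntnap1 (0.978), Vps16 (0.975) and Nktr (0.969). For Bsg they were Mrpl18 (0.987), Drap1 (0.978) and Ppp5c (0.978), and for Mpc2 H13 (0.979), Alg3 (0.973) and Fads3 (0.962). For Pdha1 they were Tmtc3 (0.956), Rbbp5 (0.935) and Arhgef11 (0.935). For Hk2, whose highest and lowest levels lay closest together among the 6, they were Tmem9b (0.935), Fam98b (0.919) and Mtch2 (0.851). Without the 2 libraries farthest from the median of the respective gene, all 18 correlations lay between 0.814 and 0.991.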

How the data were processed

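Per the submitters' processing notes, the tools were edgeR 3.8, featureCounts 2.0.1, STAR 2.7.0a, cutadapt 1.18 and FastQC 0.11.8; the sources used here name no build or annotation. Normalized CPM, scaled by the authors, were deposited for 6753 genes and 9 libraries. Columns summed to 80.3% to 81.4% of the total the unit implies, and every value was a whole multiple of a step per library within 0.01. The log2(CPM + 1) values of all 9 libraries entered 1 fit (limma 3.58.1, R 4.3.3) with a variance trend, no covariates and two-sided tests. A minimum mean of 1 CPM removed 0 genes. The fit was run on simulated libraries of independent values, with a small part of the genes changed in 1 group only. Far more genes were called in these data, so that run does not measure the error rates here. Exact permutation tests used scipy 1.17.1; tables and figures used pandas 2.3.3, numpy 2.4.6 and matplotlib 3.10.9 under Python 3.11.15. The 6 genes and the lists were chosen with earlier results of these data known. Named genes were the 6, listed pathway genes by value where called and otherwise by count with some values, and the 3 genes most correlated with each of the 6. Intervals and counting errors cover the fit and read counting only. Alternatives were other pseudocounts (0.25 and 4), filters (none, 5 or 50 CPM), scalings, fits and thresholds, each library left out, and voom on reads recovered from the steps, chosen after seeing the data.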

Additional observations from a re-analysis of the deposited data

How the results depend on the processing

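The calls of Hk1, Bsg and Mpc2 in WTHK2 against EV and of Slc2a1, Bsg and Mpc2 in LAC against EV held under every alternative in which the gene was tested. Those of Slc2a1 in WTHK2 and Hk1 in LAC against EV did not, and both also miss a threshold of 0.01. Between WTHK2 and LAC 1089 genes were called; 541 were at a threshold of 0.01, and 662 to 1279 with 1 library left out, the lowest without WTHK2 replicate 3 and 701 without LAC replicate 3. With 1 library left out, 0 to 1 of the 6 genes were called there. The log2 ratio of Hk2 to Hk1 between WTHK2 and LAC ran from -0.0097 to 0.065 with 1 library left out and was -0.041 without replicate 1 of both. Near 0, signs turned with 1 library left out for Hk2 in LAC against EV (-0.017 to 0.044), Mpc2 between WTHK2 and LAC (-0.053 to 0.031), Pdk2 in LAC against EV (-0.058 to 0.020) and Pdpr between WTHK2 and LAC (-0.026 to 0.062). With equal medians and with quantile normalization, Pdk2 in LAC against EV was 0.022 and 0.021, and Pdpr between WTHK2 and LAC was -0.0016 and -0.015; Pdk2 was 0.012 without replicate 1 of WTHK2 and LAC. The causes were not tested. The main fit did not pair libraries by replicate number. Correlations of same-numbered deviations from the group means ran from -0.0057 to 0.437. Between WTHK2 and LAC they were 0.437, 0.251 and 0.073, where those of different numbers ran from -0.335 to 0.186. In the comparisons with EV, same numbers gave -0.0057 to 0.207 and different numbers -0.202 to 0.185. For each gene the deviations within a group cancel out, so correlations of same and of different numbers are not independent. Whether libraries of the same number share an origin was not tested. With a replicate block, 1 of the 6 genes was called between WTHK2 and LAC (Bsg, adjusted p = 0.0496), and 3433, 3609 and 1414 genes were called in the 3 comparisons, beside 3131, 3341 and 1089. The block also called Dlat in WTHK2 (0.0391) and Gpt2 in LAC (0.0444) against EV. The planned count models on recovered reads were not run, and voom was run in their place.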
